A study of Drosophila melanogaster with 9 samples.

Results

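Adult Drosophila kept in constant hypoxia (CH) were set against flies kept in intermittent hypoxia (IH), to describe which genes and functions separate a steady low oxygen supply from one that keeps returning to the level of air. The comparison uses 6 of the 9 arrays of the series, 3 of CH and 3 of IH, and the members are all probe sets of the Affymetrix Drosophila Genome 2.0 array other than the manufacturer's controls, 18769 in number. Flies of both groups were Canton-S, a wild type stock, and each sample held 25 males and females, 5 to 6 days old, taken as whole organisms. CH flies had 1% O2 for the whole of 2.5 h. IH flies had 2.5 h that cycled between 4 min at 1% O2 and 4 min at 21% O2, with a short return to 21% and a much longer fall to 1% between them. IH flies were thus at 1% O2 for only part of the time, and the pattern and the total amount of hypoxia cannot be told apart in this comparison. The other 3 arrays are of normoxia controls (NC) of the same stock, age and number of flies, kept for 2.5 h in room conditions, and are given here as the level without hypoxia. They also enter the estimate of the spread in the test. RNA of all tissues and of both sexes was pooled in each sample, so no value belongs to a single tissue.

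Insects carry oxygen to their tissues through tracheae, and a fall in oxygen is sensed inside cells by prolyl hydroxylases that use oxygen to mark the transcription factor Sima, the fly HIF-alpha, for destruction. When oxygen is short the factor persists and switches on genes for tracheal growth, for glycolysis and for restraint of insulin and TOR signalling. Proteins that misfold under stress call up a further programme, in which the heat shock factor induces chaperones of the Hsp70 and small heat shock protein families, and repeated reoxygenation is known as a source of reactive oxygen species, against which cells set antioxidant, conjugating and transporting proteins.

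The values are the authors' normalized signals on a linear scale. Differences are CH minus IH on log2(signal + 16), so that a difference of 1 is close to a doubling for a bright gene and understates the ratio for a dim one, and the test is limma on the 9 arrays, its p adjusted by Benjamini-Hochberg across the 18769 probe sets. A call needed an adjusted p under 0.05 with a ratio above 1.5 or under 0.67 and all CH arrays on one side of the IH mean. For counts of genes, the 12313 genes were each taken by their brightest probe set, and 2 wider descriptions were used that allow for no multiple testing, namely an unadjusted p under 0.05 with the ratio past the same limits, and CH and IH arrays that do not overlap with the ratio past those limits. Whether the 3 samples of a group were exposed separately is not stated in the sources, and the p-values therefore cover the spread between these 3 samples alone, some or all of which could be technical. In whole flies, fewer cells of a type and less RNA in each cell cannot be told apart.

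The IH arrays differed among themselves more than the CH arrays did. The median signal was 704.5 to 781.5 on the CH arrays, 594 to 823 on the IH arrays and 675 to 771 on the NC arrays, and the median absolute difference between 2 arrays was 0.18 to 0.32 log2 within CH, 0.30 to 0.56 within IH and 0.24 to 0.44 between CH and IH. IH replicate 2 had the highest median signal of all arrays and IH replicate 1 the lowest. The 18S rRNA controls of the array, which read ribosomal RNA carried into the labelling, averaged 8.19, 9.68 and 8.85 log2 in CH, 7.07, 10.54 and 10.22 in IH and 6.88, 6.89 and 7.40 in NC. CH and IH overlapped in this measure (difference -0.37, two-sided exact permutation p = 0.8, where 3 arrays against 3 cannot go below 0.1), while every hypoxia array but IH replicate 1 was above all NC arrays. Markers of tissues were measured throughout, and of the 11 marker lists only the fat body list had a member, 1 of 10, under a signal of 100 on all arrays.

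Constant hypoxia differed from intermittent hypoxia most clearly in its heat shock genes. The 3 probe sets of the stress-inducible Hsp70 copies rose 10.2-fold to 20.0-fold in CH over IH, with CG10383 and 1 probe set without a gene name beside them, whereas yellow-d2, of the yellow protein family, and Ugt37C2, a UDP-glycosyltransferase, which joins sugars to small molecules for disposal, fell in CH relative to IH. These 5 probe sets higher in CH are 0.0266% of those tested and the 2 lower ones 0.0107%, and 896 of the 18769 probe sets (4.77%) had an unadjusted p under 0.05, where that threshold is set at 5%. At an adjusted p under 0.1 there were 14, 9 of them higher and 5 lower in CH. With the replicate number, which the groups share, as a block in the fit, limma called 0 probe sets higher and 0 lower. The Hsp70 probe sets thus did not pass in that fit. In a fit of only the 6 CH and IH arrays the 3 Hsp70 probe sets passed, while the other 4 called probe sets did not, with adjusted p of 0.0597 for the unnamed one, 0.128 for CG10383, 0.136 for Ugt37C2 and 0.182 for yellow-d2. No call held in every fit with 1 array left out: the 2 Hsp70 probe sets with the smallest p passed in 6 of 9 such fits and missed when IH replicate 3, IH replicate 2 or CH replicate 2 was left out, where their largest adjusted p was 0.0701, the unnamed probe set in 3, and CG10383, the probe set of Hsp70Bc and Hsp70Bb, Ugt37C2 and yellow-d2 in 1 each, with adjusted p up to 0.286. With CH replicate 2, IH replicate 2 or IH replicate 3 left out limma called nothing, while 233, 877 and 220 genes were higher in CH and 133, 85 and 112 lower at an unadjusted p under 0.05 past the ratio limits, in the order of those arrays. The called counts were 2 higher and 0 lower without CH replicate 1, 3 and 0 without CH replicate 3, 2 and 0 without NC replicate 3, 3 and 0 if NC replicate 2 was left out, and 7 and 1 without IH replicate 1.

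By the wider descriptions, more genes lay above IH in CH than below it. At an unadjusted p under 0.05 past the ratio limits, 248 genes were higher in CH (2.01% of those tested) and 100 were lower (0.812%). CH and IH arrays did not overlap past the same limits for 247 genes higher in CH (2.01%) and 91 lower (0.739%). The split depends on how arrays are brought to one scale: of the genes past the unadjusted threshold, 71.3% were higher in CH in the deposited values, 44.7% after quantile normalization (151 higher and 187 lower) and 43.9% after centring each array on its median (156 and 199). Centring moved the median of all genes from 0.02 to -0.10. Of all 12313 genes, 6665 (54.1%) had a difference above 0 in the deposited values, the share to set beside the list counts above 0. Of the 247 genes that were apart and higher in CH, 152 were apart after quantile normalization too, as were 84 of the 91 lower ones. The counts moved with single arrays, since without IH replicate 2 the genes higher in CH at the unadjusted threshold numbered 877, and without IH replicate 1 the lower ones numbered 215. Non-overlap is easier to meet with fewer arrays, and with any 1 CH or IH array left out it held for 371 to 1111 genes higher and 147 to 359 lower in CH. Most of the genes apart and higher in CH were dim, 205 of 247 with both group means under a signal of 1000, and 60 of the 91 lower ones were, as were 4628 of all 12313 genes.

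**Figure D1:**
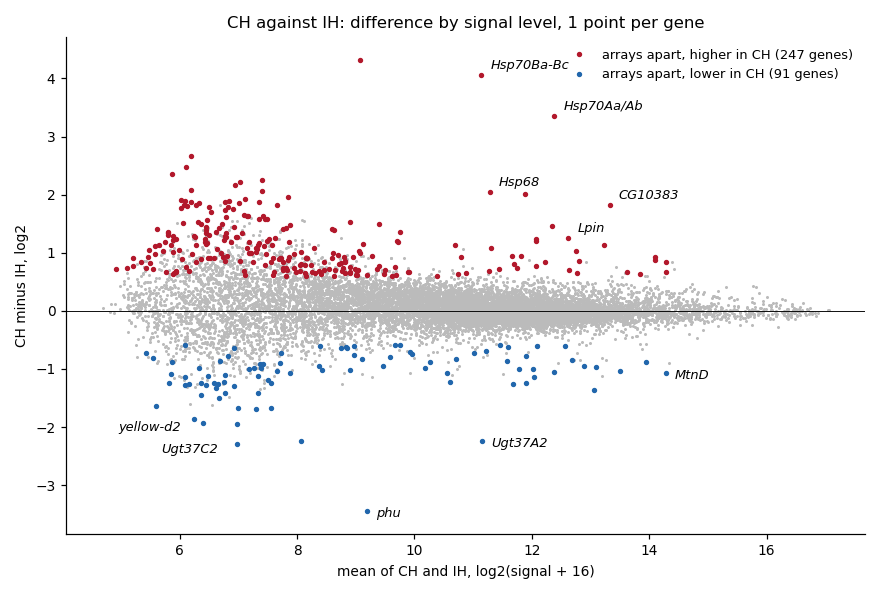
Difference between CH and IH (log2, vertical axis) against the mean of both groups (log2 of signal plus 16, horizontal axis), 1 point per gene. Red points are the 247 genes whose CH and IH arrays did not overlap past the ratio limit with CH higher, blue points the 91 with CH lower, and grey points all other genes. The red points crowd among dim genes on the left, while the Hsp70 copies, Hsp68, CG10383 and Lpin stand out among bright genes, and phu has the lowest value at -3.45.

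**Figure D2:**
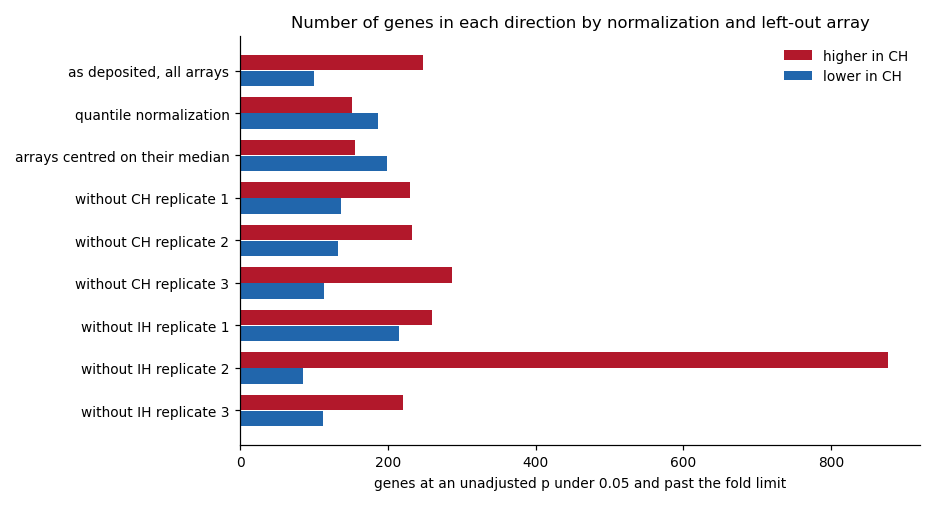
Number of genes at an unadjusted p under 0.05 past the ratio limits (horizontal axis), higher in CH in red and lower in CH in blue, for the deposited values, for the 2 other normalizations and with each CH or IH array left out. The red bar reaches 877 without IH replicate 2, against 248 with all arrays, and the blue bar is the longer one under both other normalizations.

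The heat shock genes carry the largest differences in favour of CH. Hsp70 is the main chaperone that flies make on stress, from nearly identical copies whose probe sets mostly cannot be told apart. The probe set shared by Hsp70Ba, Hsp70Bb, Hsp70Bbb and Hsp70Bc had signals of 9571, 9410.1 and 8548 in CH, 499.7, 603 and 500.2 in IH and 303, 708 and 436 in NC. The CH arrays were all far above both other groups, which overlapped each other. Its difference was 4.07 (SE 0.28), a ratio of 16.7 (adjusted p = 0.0064, limma). The probe set of Hsp70Aa and Hsp70Ab, the pair at the other Hsp70 cluster, had 14507, 18881 and 17812 in CH, 1622, 1499 and 1830.4 in IH and 2086, 1500.4 and 1100.2 in NC, and rose by 3.35 (SE 0.25) in CH over IH (adjusted p = 0.0064). Here too IH stayed within the NC range. The third probe set, of Hsp70Bc and Hsp70Bb, had 2106, 2822 and 2192 in CH, 75.9, 92.8 and 150.1 in IH and 34, 158 and 135 in NC, with a difference of 4.32 (SE 0.46) (adjusted p = 0.0384). Of the remaining Hsp70 probe sets, a dim one for the same copies as the first had 38.5, 205 and 163 in CH, 17.1, 102 and 15.7 in IH and 59.7, 102 and 146 in NC, with CH and IH overlapping. The last, shared by CG31343, Hsp70Bc and Hsp70Bb, did not follow the others, with 3339, 6685 and 5844 in CH, 4571, 12973 and 9799 in IH and 7552, 11254 and 11152 in NC, and which of its genes it reads is not given in the sources used here.

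Hsp68, a close relative of Hsp70 that is also made on stress, had 5326, 5036 and 4615 in CH, 1098, 1620 and 955 in IH and 852, 1382 and 1085 in NC. Its CH arrays lay apart from the rest by 2.05 (SE 0.25), with an adjusted p of 0.0788 that did not pass. DnaJ-1, the Hsp40 partner that hands substrates to Hsp70 and a gene taken up after its values were seen, had 26277, 25359 and 23774 in CH, 18511, 13140 and 16039 in IH and 18282, 13879 and 13776 in NC, a difference of 0.67 (SE 0.19) (unadjusted p = 0.00787). The small heat shock proteins hold unfolded proteins in solution without ATP, and of their genes 3 were measured here, while others were not analysed here. Hsp26 had 60933, 58024 and 58622 in CH, 56762, 38557 and 59659 in IH and 49431, 47049 and 53222 in NC, and Hsp27 had 35326, 32380 and 33182 in CH, 36634, 19176 and 30027 in IH and 31200, 27487 and 27068 in NC. Their CH and IH arrays overlapped, with differences of 0.22 for Hsp26, 0.28 for Hsp27 and 0.11 for l(2)efl, of which the last turned to -0.01 with arrays centred on their median. The cochaperone gene stv differed by 0.50 (unadjusted p = 0.0557). Of the 9 measured members of the stress-inducible heat shock list all were above 0, with a median of 0.67 against 0.02 over all genes. Of these members 3 were called, all higher in CH, as were 0.0266% of all probe sets. Past the unadjusted threshold were 5, all higher in CH (2.01% of all genes higher and 0.812% lower). The 3 called members were the Hsp70 probe sets, whose copies are nearly identical, with Hsp70Bb and Hsp70Bc counted repeatedly. They therefore stand for the same gene family and not for separate genes. The list's median stayed between 0.64 and 0.79 when any CH or IH array was left out. The 19 chaperones that cells make without stress had a median of 0.03 and no member past the unadjusted threshold in either direction.

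**Figure D3:**
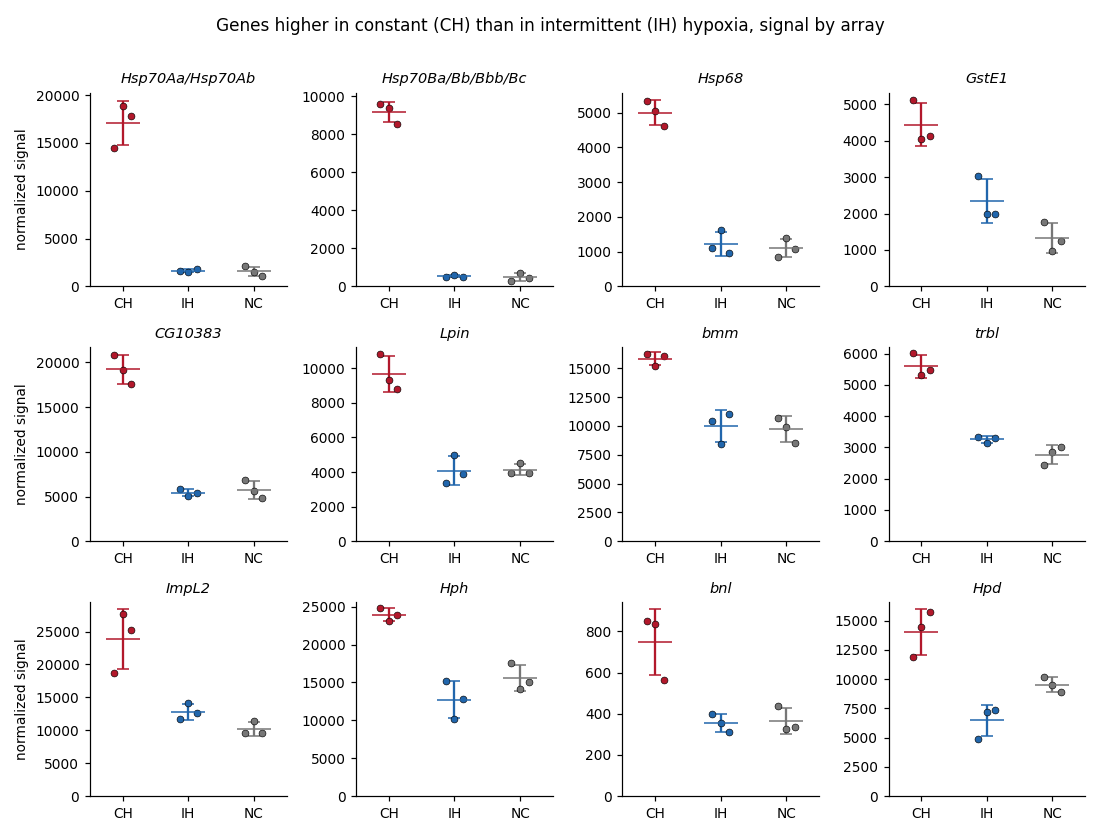
Normalized signal (linear vertical axis from 0) of 12 genes higher in CH, with CH in red, IH in blue and NC in grey. Points are single arrays, and the bars are the mean and SD of 3 arrays. In the panels of Hsp70, Hsp68, CG10383 and Lpin the 3 CH arrays stand above all IH and NC arrays, and IH lies beside NC, while GstE1 has IH between CH and NC and Hpd has NC between CH and IH.

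Of the genes of the oxygen sensing pathway and its targets, Hph, bnl and ImpL2 were past the unadjusted threshold higher in CH than in IH and btl lower, and none passed the test over all probe sets. Hph, the prolyl hydroxylase that marks Sima for destruction, had 24829, 23089 and 23880 in CH, 15132, 10201 and 12870 in IH and 17565, 14134 and 15049 in NC. Every CH array was above every IH array, and IH was within or below NC. The difference was 0.93 (SE 0.19), with limma's p at 0.00108 before adjustment (adjusted p = 0.302). bnl, the FGF ligand that draws tracheal branches towards tissue short of oxygen, had 851, 834 and 564 in CH, 398, 354 and 311 in IH and 439, 324 and 335 in NC, a difference of 1.03 (SE 0.22) (unadjusted p = 0.00148), and its CH arrays again stood clear of both others. btl, the receptor for that ligand, was dim with 29.7, 49.6 and 21.2 in CH, 43.4, 222 and 216 in IH and 90.7, 53.2 and 75.8 in NC, and its CH and IH arrays overlapped through IH replicate 1 despite a difference of -1.63. ImpL2, which binds insulin-like peptides outside cells and blocks them, had 18758, 27628 and 25257 in CH, 11746, 14132 and 12643 in IH and 9572, 11488 and 9645 in NC and a difference of 0.88 (SE 0.19) (unadjusted p = 0.00185). The IH arrays of ImpL2 were also all above the NC arrays.

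The other members of the list stood closer to 0. scyl, the fly relative of REDD1 and an inhibitor of TOR, had 9003, 18584 and 19090 in CH, 6215, 12215 and 10882 in IH and 6557, 8959.5 and 9141 in NC, so that the groups overlapped despite a difference of 0.65. The transcription factor subunits sima and tgo, the ubiquitin ligase component Vhl and the Sima regulators sxc, tws and ago had no unadjusted p under 0.05. Of 11 members of the HIF and hypoxia list, 8 were above 0, 3 were past the unadjusted threshold higher in CH and 1 lower (2.01% and 0.812% of all genes), and the median was 0.11, which became -0.02 with arrays centred on their median. Glycolytic genes, classic HIF targets in mammals, had smaller differences: of 13 measured, 8 were above 0, the median was 0.06, none passed the unadjusted threshold, and the highest was 0.40 for Ald1.

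Single genes of insulin signalling and of fat turnover were also higher in CH at the unadjusted threshold, 2 of 20 and 3 of 21 members of their lists, and none passed after adjustment. trbl, a pseudokinase that binds Akt and blocks its activation, had 6018, 5326 and 5461 in CH, 3341, 3134 and 3288 in IH and 2436, 2846 and 3027 in NC. Each group spread little, and CH was above both others, with a difference of 0.78 (SE 0.15) (unadjusted p = 0.000878, adjusted p = 0.286). REPTOR, a transcription factor that acts when TOR is inhibited, had 4269, 4935 and 4983 in CH and 3264, 3170 and 3215 in IH and differed by 0.55. InR, the insulin receptor, which Foxo induces when insulin is low, had 3172, 3909.6 and 3966 in CH and 2729.8, 2524 and 2200.4 in IH and differed by 0.56. Both had non-overlapping arrays but ratios below the limit of 1.5. Of 20 members of the insulin, FOXO and TOR list 15 were above 0, with a median of 0.14, 2 were past the unadjusted threshold with the ratio limit, ImpL2 and trbl, both higher in CH, and none lower (2.01% and 0.812% of all genes). With arrays centred on their median the list had 10 members above 0 and a median of 0.01.

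Lpin, the lipin phosphatase that makes diacylglycerol for triglyceride synthesis and also acts in the nucleus, had 10822, 9326 and 8826 in CH, 3348, 4978 and 3904 in IH and 3972, 4509.6 and 3936 in NC. CH was above every other array, and IH and NC overlapped. The difference was 1.25 (SE 0.19), a ratio of 2.39 (unadjusted p = 0.00016, adjusted p = 0.158). bmm, the Brummer lipase that breaks down stored triglyceride, had 16222, 15159 and 16087 in CH, 10453, 8467 and 11063 in IH and 10720, 9868 and 8505 in NC and a difference of 0.67 (SE 0.17) (unadjusted p = 0.00423). GIIIspla2, a secreted phospholipase A2, had 12196, 9235 and 7428 in CH, 5611, 4123 and 6143 in IH and 5777, 4867 and 5667 in NC and a difference of 0.85 (SE 0.24). In all of these genes the IH and NC arrays overlapped. These were the 3 of 21 genes of triglyceride storage and lipolysis past the unadjusted threshold, none was past it in the other direction (2.01% and 0.812% of all genes), and the median of the list was 0.13. The genes of fatty acid synthesis, FASN1, FASN2 and ACC, had no unadjusted p under 0.05.

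Among genes outside these lists, CG10383 was the brightest called probe set. It had 20866, 19190 and 17595 in CH, 5857, 5086 and 5393 in IH and 6855, 5583 and 4856 in NC, with CH above all others and IH within the range of NC, and rose by 1.82 (SE 0.18) in CH over IH (adjusted p = 0.0294). The called probe set without a gene name had 173, 186 and 172 in CH, 28.0, 31.6 and 21.3 in IH and 78.2, 123 and 95.8 in NC, with NC between the groups. Hpd, the dioxygenase for 4-hydroxyphenylpyruvate in tyrosine breakdown, had 11920, 14478 and 15770 in CH, 4929, 7156 and 7331 in IH and 10187, 9485 and 8948 in NC, also with NC between, and a difference of 1.13 (SE 0.21) (unadjusted p = 0.000544). hgo, which encodes homogentisate dioxygenase, the following oxygen-using step, was taken up after its values were seen and had 3096, 3840.2 and 3619.8 in CH, 1570.4, 2481 and 2434 in IH and 2808, 2238 and 2328 in NC, a difference of 0.72 (SE 0.22) with an unadjusted p of 0.011. St1, a sulfotransferase, had 1173, 1383 and 1151 in CH, 432, 678 and 487 in IH and 885, 1089 and 1147 in NC, where IH was below both other groups, and a difference of 1.21 (SE 0.21). CenG1A, which encodes a GTPase activating protein, had 4187, 6102 and 4765 in CH, 2631, 2735 and 2346 in IH and 3253, 3429.5 and 3614 in NC, and dac, a nuclear cofactor, had 326, 326 and 357 in CH, 188, 197 and 172 in IH and 318, 289 and 256 in NC. CG6870 and Sirup, which encodes an assembly factor of succinate dehydrogenase, were taken up after their values were seen. CG6870 had 8496, 8746 and 7890.4 in CH, 1944, 4395 and 3234 in IH and 2937, 3719 and 3969.9 in NC, and Sirup had 29462, 26026 and 24761 in CH, 18650, 13278 and 13257 in IH and 17082, 13524 and 15184 in NC, in both cases with CH above all other arrays.

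Among conjugation genes, some glutathione S-transferases were higher in CH. GstE1, a glutathione S-transferase, had 5114, 4059 and 4138 in CH, 3039, 1992 and 1989.7 in IH and 1773, 969.8 and 1241 in NC, where both hypoxia groups were above NC and CH was highest, with a difference of 0.94 (SE 0.27) (unadjusted p = 0.00816). GstD2 had 6631, 6215 and 5917 in CH, 5031, 1939.9 and 1913 in IH and 3652, 1690.4 and 1376 in NC, with IH replicate 1 close to the CH arrays and the other IH arrays within the NC range, so its difference of 1.23 became 1.69 without that array. GstZ2 differed by 0.69, and GstD11 by -0.60. Of 36 glutathione S-transferases 3 were past the unadjusted threshold higher in CH and 1 lower (2.01% and 0.812% of all genes), and 20 were above 0. puc, the phosphatase that JNK signalling induces against itself, had 8483, 7852 and 7964 in CH, 6239, 4542 and 4241 in IH and 7104, 5905 and 4984 in NC, a difference of 0.71 (SE 0.21) (unadjusted p = 0.00855). TotF, a Turandot stress peptide gene, was dim, with 205, 106 and 146 in CH, 45.4, 21.6 and 30.7 in IH and 169.7, 124 and 187 in NC, and IH was below both other groups. upd1, a ligand of the JAK/STAT pathway, was dim and differed the other way by -1.23, with 93.2, 28.2 and 46.1 in CH, 183, 149 and 102 in IH and 196, 234 and 210.5 in NC and both hypoxia groups below NC.

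Cuticle and chitin genes were a small part of the genes on the CH side. Of 136 cuticle and chitin genes 88 were above 0, with a median of 0.17, 7 were past the unadjusted threshold higher in CH and 1 lower (2.01% and 0.812% of all genes). The clearest were Cpr47Eg, with 360.1, 169 and 339.6 in CH, 50.6, 38.1 and 126 in IH and 73.6, 260.5 and 101 in NC, and Cpr76Ba, with 335, 210 and 227 in CH, 78.4, 34.7 and 24.7 in IH and 288, 151 and 28 in NC, and the lower one was Cpr11B, with 37.4, 26.6 and 96.1 in CH, 91.3, 228 and 194 in IH and 195, 167 and 183 in NC. After quantile normalization 70 of the 136 were above 0 and the median was 0.01. The channel gene ppk8, with 115, 116 and 80.1 in CH, 16.1, 24.4 and 16.3 in IH and 29.8, 23.7 and 13.6 in NC, and the nuclear receptor genes eg, with 134, 101 and 115 in CH, 7.8, 9.8 and 12 in IH and 48.6, 105 and 12.9 in NC, and Eip78C, with 636, 583 and 545 in CH, 435, 328 and 337 in IH and 496, 563 and 405 in NC, were also higher in CH, with ppk8 and eg near the lower end of the scale in IH. Further genes higher in CH among those named by smallest p, of no list described here, were dcma, CG6142, CG13170, CG13022, CG34245, CG13215, Sgs5bis and hll, with differences of 1.30 to 2.66.

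Genes lower in CH than in IH included 3 UDP-glycosyltransferases, 2 alkaline phosphatases, a metallothionein and some membrane transporters, and of these only Ugt37C2 was called. Ugt37C2 had 59.3, 36.9 and 28.8 in CH, 244, 268 and 268 in IH and 117, 192 and 200.3 in NC. Its CH arrays were below and its IH arrays above every NC array, and it fell by 2.29 in CH relative to IH (SE 0.26, adjusted p = 0.0481). Of its relatives, Ugt37A2 had 690.1, 1183 and 1091 in CH, 2499, 8120.2 and 4856 in IH and 2786, 1315 and 1681 in NC, where IH replicate 2 was highest and IH replicate 1 lay within NC, and differed by -2.24 (SE 0.46) (unadjusted p = 0.00114). Ugt37D1 had 1728, 2257 and 2099 in CH, 2909, 7878 and 4989 in IH and 2556, 3060.4 and 3131 in NC, with CH below NC, and differed by -1.26 (SE 0.33) (unadjusted p = 0.0052). The Ugt37 genes did not all run one way, as Ugt37A3 differed by -0.63, Ugt37B1 by 0.91 and Ugt37E1 by 0.72. Of 35 UDP-glycosyltransferases 11 were above 0 and the median was -0.17. Past the unadjusted threshold were 3 lower in CH, Ugt37C2, Ugt37A2 and Ugt37D1, and 2 higher, Ugt37B1 and Ugt35E1 (0.812% and 2.01% of all genes). The median of the list was below 0 in each fit without 1 CH or IH array, between -0.29 and -0.11.

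phu, of the alkaline phosphatase family, had the lowest difference of all genes. Its signals were 184, 84 and 209 in CH, 2818, 1110.4 and 1817 in IH and 306, 649.6 and 364 in NC. No CH array reached the lowest NC array and no NC array reached the lowest IH array, with a difference of -3.45 (SE 0.45), a ratio of 0.0917 (unadjusted p = 5.42e-05, adjusted p = 0.0806). Alp2 had 1649, 3212 and 2549.6 in CH, 4109, 8329 and 5301 in IH and 2867, 3839.5 and 3792 in NC, with the highest value again in IH replicate 2, and differed by -1.24 (SE 0.33) (unadjusted p = 0.00515). Of 13 alkaline phosphatases 4 were above 0 and the median was -0.37. These 2 were past the unadjusted threshold lower in CH and none was past it higher (0.812% and 2.01% of all genes). MtnD, a metallothionein, a small protein that binds copper and other metals, had 12117, 14126 and 14979 in CH, 25590, 30735 and 30137 in IH and 12806, 19036 and 17895 in NC. CH overlapped NC and IH was above both, by a CH minus IH difference of -1.07 (SE 0.20) (unadjusted p = 0.000658, adjusted p = 0.26). MtnC differed by -0.66 (unadjusted p = 0.0586), and none of the 4 metallothioneins was above 0. The metallothionein median was -0.37 and stayed below 0 in each fit without 1 CH or IH array, between -0.64 and -0.19.

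**Figure D4:**
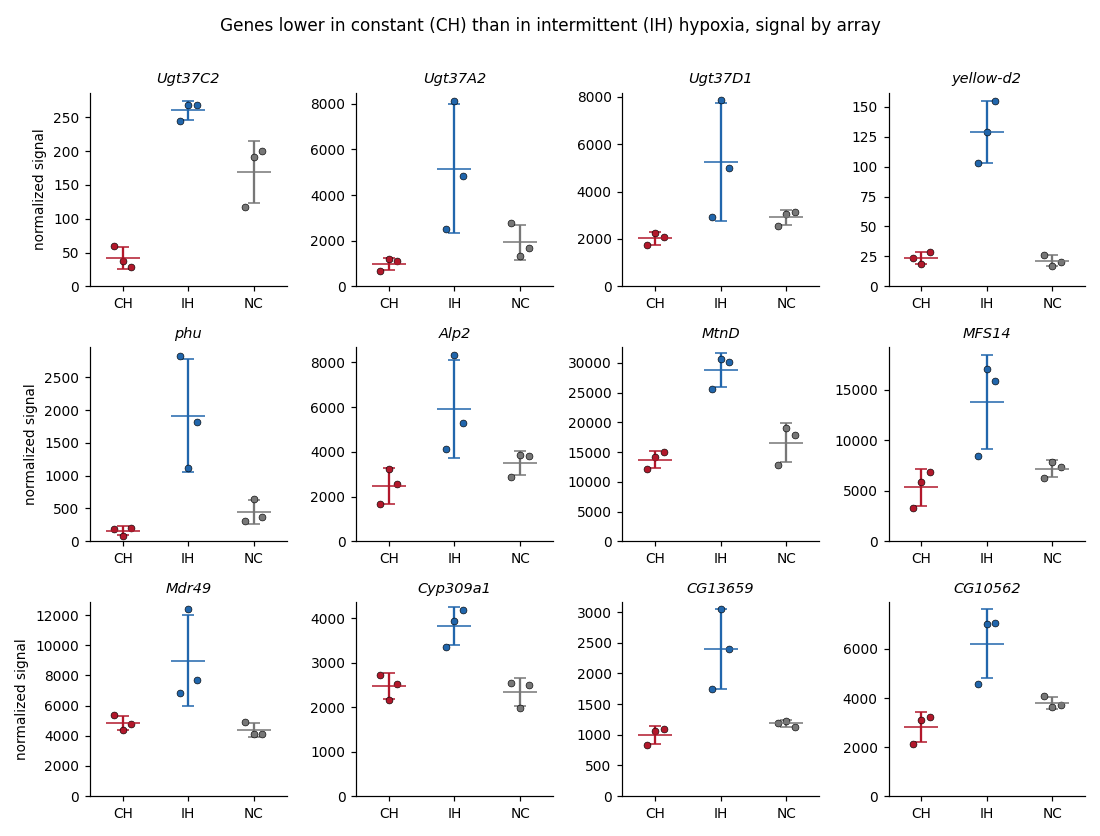
Normalized signal (linear vertical axis from 0) of 12 genes lower in CH than in IH, with CH in red, IH in blue and NC in grey. Points are single arrays, and the bars are the mean and SD of 3 arrays. IH stands above CH in each panel, CH lies below NC for Ugt37C2 and phu and beside it for MtnD, Mdr49 and Cyp309a1, and IH replicate 2, the middle blue point, is the highest array for Ugt37A2, Ugt37D1, Alp2, MFS14, Mdr49 and CG13659.

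Some membrane transporters were lower in CH, with a wide spread. MFS14, a member of the major facilitator superfamily, had 3294, 5813 and 6893 in CH, 8424, 17002 and 15832 in IH and 6220.1, 7873 and 7355 in NC. The lowest IH array was above the highest CH array, and NC overlapped CH, with a difference of -1.36 (SE 0.35) (unadjusted p = 0.00443). Picot, a related transporter, had 5015, 9800.4 and 7269 in CH, 9504, 14981 and 14455 in IH and 10338, 11189 and 9980.3 in NC, with CH below NC, and differed by -0.84, its arrays overlapping between CH replicate 2 and IH replicate 1. Of 24 members of this transporter list 8 were above 0, with a median of -0.15, and 3 were past the unadjusted threshold lower in CH and none higher (0.812% and 2.01% of all genes). By non-overlapping arrays past the ratio limit the list had 1 member higher and 1 lower in CH (2.01% and 0.739% of all genes). Mdr49, an ABC transporter of the P-glycoprotein kind that pumps many compounds out of cells, had 5371, 4402 and 4755 in CH, 6830.2, 12422 and 7695 in IH and 4936, 4148 and 4128 in NC. All IH arrays were above all CH and NC arrays, while CH and NC overlapped, and the difference was -0.84 (SE 0.24) (unadjusted p = 0.00781), or -0.59 without IH replicate 2. Mdr50, a related pump, had 712, 1259 and 1668 in CH, 1224, 3579.8 and 2489 in IH and 928, 921 and 1010.5 in NC, with CH and IH overlapping and a difference of -0.95 (SE 0.42) (unadjusted p = 0.0553). Mrp4, listed in older annotation as CG14709, was dim and overlapped, with 73.4, 289.8 and 222 in CH, 193, 206 and 242 in IH and 278, 222 and 112 in NC. Of 13 multidrug ABC transporters 2 were above 0, Mdr49 and Sur were past the unadjusted threshold lower in CH, none was past it higher (0.812% and 2.01% of all genes), and the median was -0.22. That median stayed between -0.33 and -0.18 without any 1 CH or IH array.

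Cytochrome P450 genes, whose products oxidize lipids, hormones and foreign compounds with molecular oxygen, were split by sign, while most of those past the unadjusted threshold were lower in CH. Of 89 measured, 42 were above 0 and the median was -0.03, close to that of all genes, but 8 were past the unadjusted threshold lower in CH and 1 higher (0.812% and 2.01% of all genes). Cyp309a1 had 2731, 2154 and 2519 in CH, 3348, 3932 and 4171 in IH and 2546, 1974 and 2492 in NC, with IH above both other groups, and differed by -0.63 (SE 0.18) (unadjusted p = 0.00864). Cyp12a5, of a mitochondrial P450 family, had 3073, 3616 and 3817 in CH, 4846, 6489 and 4826 in IH and 3414, 3151 and 2949 in NC, again with IH apart, and differed by -0.61. Cyp313a4 had 399.7, 370.4 and 429 in CH, 718, 793 and 655 in IH and 489, 628 and 586 in NC, with NC between the groups, and differed by -0.83. The others were Cyp6a23, Cyp4d21, sad, Cyp6d4 and Cyp303a1, with differences of -1.12, -1.07, -0.91, -0.69 and -1.64, and sad encodes a step of ecdysone synthesis. Cyp28d2 was the one higher in CH, with 374, 337 and 348 in CH, 192, 318 and 92.2 in IH and 336, 336 and 326 in NC, its IH values spreading widely. The share of P450 genes past the threshold lower in CH can be read against the 0.812% of all genes given above.

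Single genes of other families were also lower in CH. yellow-d2 was dim, with 23.9, 18.5 and 28.9 in CH, 103, 129 and 155 in IH and 26.2, 17 and 20.6 in NC, so that IH alone stood above the other groups, and it fell by 1.86 in CH relative to IH (SE 0.20, adjusted p = 0.0384). CG13659 had 828, 1064 and 1094 in CH, 1748, 3043 and 2405 in IH and 1194, 1231 and 1129.9 in NC and CG10562 had 2122, 3109.6 and 3237 in CH, 4578, 7009 and 7042 in IH and 4095, 3625 and 3714 in NC, and in both all CH arrays were below and all IH arrays above the NC arrays. Their differences were -1.23 (SE 0.23) and -1.13 (SE 0.24). CG6830 had 7404, 8141 and 8667 in CH, 14651, 20487 and 15060 in IH and 12268, 8273 and 7514 in NC and differed by -1.04. CG9837 had 609, 965 and 869 in CH, 1387, 1859 and 1588 in IH and 864, 1005 and 1158 in NC and differed by -0.99, with IH above both other groups. Zip89B, a zinc transporter, had 516, 889 and 865 in CH, 1193, 1227 and 1228 in IH and 947, 1034 and 1001 in NC and differed by -0.71. Genes lower in CH than in both IH and NC included CG5070, with 66.9, 48.2 and 38.9 in CH, 193, 175 and 120 in IH and 167, 165 and 180 in NC, the gut serine protease Ser8, with 1533, 2805 and 2549 in CH, 3661, 4386 and 4102 in IH and 4823, 3546 and 3293 in NC, and CG6271, with 93.7, 42.5 and 213 in CH, 399.5, 610 and 570.5 in IH and 329, 464 and 367 in NC. Muc55B, a mucin, had 54.3, 37.4 and 43.6 in CH, 100.5, 335 and 295 in IH and 39.8, 55.7 and 129 in NC, with IH spread over a wide range. Dredd, the caspase of the Imd immune pathway, showed a small difference of -0.43 (SE 0.14) with tight arrays, 1992, 1981 and 1987 in CH, 2652, 2719.8 and 2696 in IH and 2772, 2541 and 2553 in NC.

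**Figure D5:**
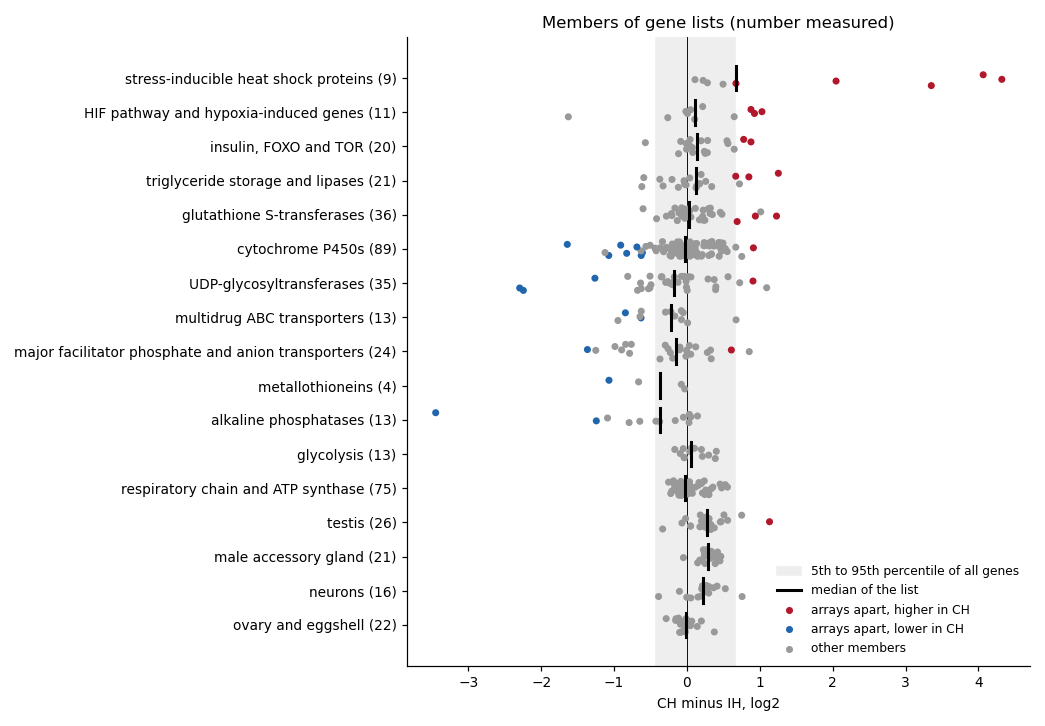
Differences between CH and IH (log2, horizontal axis) of the members of selected gene lists, 1 point per gene, with the number measured in brackets. Red and blue points are members whose arrays did not overlap past the ratio limit, higher or lower in CH, black bars are list medians, and the grey band, from -0.42 to 0.66, holds the bulk of all genes. The heat shock list has its median at 0.67, while the alkaline phosphatases and metallothioneins have theirs at -0.37.

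Housekeeping functions lay close to 0. The 75 genes of the respiratory chain and ATP synthase had a median of -0.03, with differences from -0.25 to 0.56 and none past the unadjusted threshold with the ratio limit. The 41 cytoplasmic ribosomal protein genes had a median of -0.02 and the 41 proteasome genes one of 0.03. Mitochondrial ribosomal protein genes were mostly slightly lower in CH, 11 of 71 above 0 with a median of -0.10, and none was past the threshold, with a median between -0.21 and -0.01 when 1 CH or IH array was left out. Antimicrobial peptide genes had a median of -0.13 over 12 members, with 5 above 0 and none past the threshold, and their median changed sign to 0.07 without IH replicate 1 and to 0.10 without IH replicate 2. The 12 genes of guanylyl cyclases and nitric oxide signalling, which act in the oxygen sense of fly neurons, had 11 members above 0 and a median of 0.36 without any past the threshold. Drat, an alcohol dehydrogenase family gene that older annotation lists as CG1600, was higher than NC in both patterns, with 23564, 34723 and 36572 in CH, 16603, 28092 and 24609 in IH and 13948, 12663 and 10273 in NC, and CH and IH overlapped with a difference of 0.46 (SE 0.27).

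Markers of some tissues lay mostly above 0, where 54.1% of all genes lay, with summed signals that overlapped between CH and IH. Of 26 testis markers 23 were above 0, with a median of 0.27, and their summed signal was 309900 to 344900 in CH, 256600 to 357800 in IH and 274400 to 296300 in NC. Of 21 accessory gland markers 20 were above 0, with a median of 0.29 and sums of 407900 to 480800 in CH, 284700 to 466000 in IH and 350400 to 400300 in NC. The 12 photoreceptor markers were all above 0 with a median of 0.14, and 13 of 16 neuron markers were, with a median of 0.23. Of 22 ovary and eggshell markers 9 were above 0, with a median of -0.02, the muscle markers had a median of 0.08, and those of glia, fat body, hemocytes, Malpighian tubules and midgut had medians from -0.04 to 0.01. With arrays centred on their median, where that of all genes was -0.10, the medians were 0.15 for testis, 0.17 for accessory gland, 0.01 for photoreceptors (7 of 12 above 0) and 0.10 for neurons. The medians moved with single IH arrays, as that of the neuron markers was 0.06 without IH replicate 1 and 0.55 without IH replicate 2, and that of the testis markers 0.10 without IH replicate 3 and 0.58 without IH replicate 2. Their part in the differences of other genes was not tested.

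The position of the NC arrays shows which pattern stood away from normoxia. A group was taken as apart where its distance from NC was at least 2 times that of the other group, whichever side of NC each lay on. Genes counted as apart can therefore also have CH and IH on opposite sides of NC. Among the 247 genes with non-overlapping arrays higher in CH, CH was apart in 101 and IH in 62. In 83 neither was apart and the groups lay on opposite sides of NC. Among the 91 lower in CH, CH was apart in 36 and IH in 28, and in 27 neither was apart and the groups lay on opposite sides. Genes with CH apart and above included the Hsp70 copies, Hsp68, DnaJ-1, CG10383, Lpin, bmm, trbl, bnl, ImpL2, GstE1 and Hph, and those with IH apart and above CH included yellow-d2, MtnD, Mdr49, Cyp309a1, Cyp12a5, CG6830, CG9837 and CG13659. In 12 of the 12313 genes no array was out of order between the groups, with the ratio past the limit. CG13215, St1, Hpd, dac, CenG1A and Cyp28d2 ran from CH down through NC to IH, and Ugt37C2, phu, CG13659, Cyp313a4, CG10562 and Zip89B ran from CH up through NC to IH. The same 3 NC arrays enter both distances, so the position is a description of these arrays with no test.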

How the data were processed

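The authors hybridized RNA of whole flies to the Drosophila Genome 2.0 array and normalized it with the Bioconductor affy software, with options not given in the sources used here. Each array was deposited as 1 column of normalized, linear intensities, whose mean after trimming the top and bottom 2% is 2500 on all arrays. An array has no depth, and the number of arrays limits the precision. After 183 control probe sets were left out, log2(signal + 16) was computed for 18769 probe sets, which the platform annotation links to 1 gene symbol (13647), to several (402) or, in the table used, to none (4720), and the RefSeq gene table held 12449 of the 12551 gene identifiers. A gene was taken by the probe set with the highest mean, and probe sets with several symbols count by that set of symbols, which gave 12313 genes. Genes with no named probe set here were not analysed.

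In R 4.3.3, limma 3.58.1 (lmFit, eBayes) took the contrast CH minus IH from a fit of all 9 arrays with a mean for each group, and the script was tested on simulated data. The limits follow the study's methods, whose VAMPIRE suite was not run. The members and the 53 gene lists (42 of functions, 11 of tissue markers) were chosen with earlier results of these data known, and a list is described by counts and its median with no test. Genes are named if called, if among the 15 per direction with 1 symbol, the smallest p, non-overlapping arrays, a ratio past the limit and a signal of at least 100 in the higher group, if among up to 4 members of a list with the smallest p, if the study names them as measured, or if among the 6 per direction with NC between CH and IH. DnaJ-1, stv, the small heat shock genes, scyl, hgo, CG6870, Sirup, Ald1, MtnC, the further UDP-glycosyltransferase and P450 genes and some genes of the closing section were added after their values were seen. Promoter motifs were not analysed here. The alternatives tried were fewer arrays in the fit, the replicate number as a block, no dim probe sets, a spread that follows the mean, array weights, quantile normalization, centring, other added values, fold limits and p limits, the dimmest probe set for a gene, and leaving out each array. The block with only the CH and IH arrays, and the gene lists under other scalings and without single arrays, were added after seeing the data.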

Additional observations from a re-analysis of the deposited data

Results flagged for a closer look

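In 12 of the 12313 genes the CH arrays lay on one side of all NC arrays and the IH arrays on the other, with the ratio past the limit. With 3 arrays in a group such an order can also arise by chance, and how often was not worked out. CH was below and IH above NC for phu (CH minus IH -3.45 log2), Ugt37C2 (-2.29), CG13659 (-1.23), CG10562 (-1.13), Cyp313a4 (-0.83) and Zip89B (-0.71). CH was above and IH below NC for CG13215 (2.66), St1 (1.21), Hpd (1.13), CenG1A (0.95), Cyp28d2 (0.91) and dac (0.81). Of these only Ugt37C2 passed limma's test of CH against IH at an adjusted p under 0.05, and the position on opposite sides of NC was not itself tested.

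The 18S rRNA controls, which belong to no gene of the comparison, averaged 1.85 log2 above NC in CH and 2.22 above NC in IH. Between CH and IH the arrays overlapped. The part of ribosomal RNA in the other differences was not tested.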

How the results depend on the processing

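With all 9 arrays and the deposited scale limma called 5 probe sets higher and 2 lower in CH, and 248 and 100 genes were past the unadjusted threshold. The called counts, higher then lower, were 3 and 0 in a fit of only the 6 CH and IH arrays, 5 and 1 without the dimmest 40%, 8 and 1 with a spread that follows the mean, 8 and 4 after quantile normalization, 5 and 1 after centring, 4 and 0 with 1 added before the log, 6 and 1 with 50 added, and 2 and 0 at an adjusted p under 0.01. They were 219 and 53 with array weights (1261 and 334 at the unadjusted threshold), where IH replicate 3 alone had a weight of 5.5, and these included all 7 of the called ones. Quantile normalization also included all 7, and the setting without the dimmest 40% included 3 of the 5 higher and neither of the lower ones. Leaving out 1 array gave 0 to 7 higher and 0 to 2 lower, 220 to 877 and 85 to 215 at the unadjusted threshold, and, for a CH or IH array, 371 to 1111 and 147 to 359 with non-overlapping arrays, a condition easier to meet with fewer arrays.

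At the unadjusted threshold the counts were 107 and 62 without the dimmest 40%, 151 and 187 after quantile normalization, 156 and 199 after centring, and 120 and 54 with a 2-fold limit. Genes with non-overlapping arrays numbered 82 and 44 without the dimmest 40%, 157 and 179 after quantile normalization, 166 and 197 after centring, and 121 and 47 with a 2-fold limit. With no limit on the ratio they numbered 509 and 375, in total 884 genes or 7.18% of all. The cause of these changes in the counts was not tested, beyond the fewer genes that the 40% and 2-fold settings leave.

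Replicate numbers are shared by the groups, and the deviations of same-numbered CH and IH arrays correlated at 0.291, 0.184 and 0.0971. Differently numbered CH and IH arrays correlated at -0.212 to 0.0688. Since the last same-numbered value is under 0.1, the numbers were not taken to pair the samples, although every array correlated best with its own number. Same-numbered arrays also resembled each other in other measures. In each group the median signal was lowest in replicate 1 and highest in replicate 2. The median absolute difference of same-numbered CH and IH arrays was 0.266, 0.239 and 0.236 log2. CH replicate 1 was nearer IH replicate 1 than CH replicate 2 (0.315) or CH replicate 3 (0.294). The arrays thus share a structure by number, which the main fit leaves out and whose source was not tested. With the replicate block limma called 0 higher and 0 lower, with 318 and 137 genes at the unadjusted threshold, and the same 0 and 0 with only the 6 arrays, with 296 and 145. Of the genes named, the difference of l(2)efl turned to -0.014 after centring and ranged from -0.20 (without IH replicate 1) to 0.36 without 1 array, and that of Mrp4 from -0.65 to 0.24 (without CH replicate 1). In the other alternatives for named genes, 2145 values kept their direction and side of the threshold, 61 came to pass it, mostly with array weights, and 71 no longer passed. The 18S rRNA difference of -0.37 ranged from -1.48 to 0.26 without 1 array, turning to 0.26 without IH replicate 2 and to 0.10 without IH replicate 3.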

Other observations

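Some smaller groups held single genes whose CH and IH arrays did not overlap, as was the case for 7.18% of all genes with no limit on the ratio. In the Notch list 14 of 17 members were above 0, with a median of 0.21, and after quantile normalization 10 were, with a median of 0.10. Past the unadjusted threshold were 2 members higher in CH and 1 lower (2.01% and 0.812% of all genes). The higher ones were Brd (2.25) and E(spl)m6-BFM (0.99), both dim, and the lower one was E(spl)m3-HLH. In the same list fng, the glycosyltransferase that tunes Notch to its ligands, had 3732, 3911 and 4005 in CH, 2640.2, 2916 and 2629 in IH and 3093, 2496 and 2371 in NC, a difference of 0.51 (SE 0.16). E(spl)m3-HLH, a repressor that Notch induces, ran the other way with 325, 686 and 745 in CH, 842, 1049 and 1026 in IH and 1028, 1243 and 1064 in NC, where both hypoxia groups were mostly below NC. In the endoplasmic reticulum list, Ero1L, the oxidase that uses oxygen to form disulfide bonds, had 5582, 5367 and 5495 in CH, 4332, 3899 and 4328 in IH and 4558, 4293 and 4062 in NC, higher in CH by 0.39 (SE 0.14), while Edem2, which sends misfolded glycoproteins to degradation, had 322, 313 and 340.5 in CH, 469, 614 and 475 in IH and 332, 471 and 496 in NC, with IH above CH. In the endoplasmic reticulum list Edem2 was the 1 member past the unadjusted threshold lower in CH, and none was past it higher (0.812% and 2.01% of all genes). None of these genes passed at an adjusted p under 0.05, and the ratios of fng and Ero1L were below the limit of 1.5.

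MsrA, which repairs oxidized methionine, had 4376, 6104 and 5370.1 in CH, 6041, 12720 and 10698 in IH and 5992, 10519 and 11598 in NC, with IH replicate 1 within the CH range, IH replicate 3 within the NC range and IH replicate 2 above all NC arrays. Atg13, which starts autophagy, had 7687, 8509.7 and 8969.7 in CH, 6460, 5773 and 7230.1 in IH and 6093, 6049 and 6702 in NC, with every CH array above every IH array and a difference of 0.37 (SE 0.16). Its ratio of 1.3 was below the limit. The 7 genes of purine synthesis had a median of 0.26, with 5 above 0 and no member past the unadjusted threshold. Of 21 neurotransmitter transporters 9 were above 0, and 1 was past the unadjusted threshold higher in CH and 1 lower (2.01% and 0.812% of all genes). The higher one was CG13796, with 2023, 2112 and 2151 in CH, 1025, 1636 and 1430.2 in IH and 1262, 1475 and 1212 in NC. The lower one was CG8850, with 41.3, 29.9 and 27.6 in CH, 79.5, 129 and 155 in IH and 16.9, 104 and 53.7 in NC.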
